A study of Mus musculus with 9 samples.

Results

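Signalling by fibroblast growth factors (FGFs) was followed in mouse calvarial osteoblasts through 10 genes of the pathway, out of the 40548 genes in the expression tables. The genes were taken by name, with earlier results of these data known: the ligands Fgf2, Fgf7 and Fgf18, the receptors Fgfr1, Fgfr2 and Fgfr3, and the feedback inhibitors Spry1, Spry2, Spry4 and Dusp6. The RNA-seq covered 9 libraries, 3 at day 0, 3 at day 4 and 3 at day 7, where day 0 is the confluent culture before differentiation and the later days count time in mineralization medium. All libraries came from calvarial cells of C57BL/6 pups, taken at postnatal day 2-3 by the labels, whereas the methods give the substrain C57BL/6J, a wider range of ages, both sexes and, beside wild type, a line with Col1a1-driven GFP. Cells of days 4 and 7 had received ascorbic acid and β-glycerol phosphate, which day 0 cells had not. By the labels, mineralized cultures were released with collagenase I before trypsin and non-mineralized cultures with trypsin alone, and the methods give collagenase I for cultures of both day 4 and day 7, so the way of harvest and the stage cannot be told apart. The methods call the libraries biological replicates, but the sources used here do not say how many pups or cultures each one pooled.

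FGFs are secreted proteins that bind receptor tyrosine kinases on the cell surface with heparan sulfate as a co-factor, and the receptors signal through RAS and the ERK kinases. In the skull, FGF signalling controls how bone-forming cells proliferate and mature at the sutures, and activating mutations of FGFR1, FGFR2 and FGFR3 cause craniosynostosis in people. ERK activity induces its own brakes, among them the Sprouty proteins, which act between the receptor and RAS, and Dusp6, a phosphatase that takes the phosphates off ERK. Transcripts of Sprouty genes and of Dusp6 are for that reason widely used as readouts of the pathway, although other growth factors induce them too.

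Of the 10 genes, 9 could be tested and 3 differed between day 7 and day 0: Fgfr3 rose, and Spry1 and Spry2 fell. Of all 12712 genes tested, 31.2% differed, a share close to that of the members. Dusp6 and Spry4 had means about 2 times as high in the day 4 libraries as at day 0, and their day 7 libraries overlapped those of day 0. Fgfr1 and Fgfr2, the receptors with the most transcript, and the ligands Fgf2 and Fgf7 were not past the threshold between day 0 and day 7. Fgf18 was near the limit of detection.

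The bases just before the start of Spry1, Spry2, Dusp6 and Fgfr3 are shown because the results turn on these 4 genes: the first 3 are the feedback inhibitors with the most transcript, and Fgfr3 is the receptor that rose. The sequences are from RefSeq (assembly GRCm38.p6) and run 5′ to 3′ on the strand of the gene. Each ends at the base before the gene's start in GENCODE M21. Capitals mark the GC box, GGGCGG or its reverse complement CCGCCC, a motif known to bind SP1-type factors.
Spry1 (chr3:37639697-37639946, forward strand): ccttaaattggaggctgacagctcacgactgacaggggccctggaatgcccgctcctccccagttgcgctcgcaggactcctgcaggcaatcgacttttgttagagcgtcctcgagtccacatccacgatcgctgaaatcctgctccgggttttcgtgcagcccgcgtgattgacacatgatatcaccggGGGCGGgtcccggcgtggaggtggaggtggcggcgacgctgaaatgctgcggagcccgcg
Spry2 (chr14:105896820-105897069, reverse strand): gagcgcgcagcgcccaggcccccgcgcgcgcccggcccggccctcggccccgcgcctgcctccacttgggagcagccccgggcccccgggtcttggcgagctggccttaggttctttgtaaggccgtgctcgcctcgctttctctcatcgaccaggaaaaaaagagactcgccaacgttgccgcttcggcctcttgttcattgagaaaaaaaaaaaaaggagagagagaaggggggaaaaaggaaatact
Dusp6 (chr10:99262981-99263230, forward strand): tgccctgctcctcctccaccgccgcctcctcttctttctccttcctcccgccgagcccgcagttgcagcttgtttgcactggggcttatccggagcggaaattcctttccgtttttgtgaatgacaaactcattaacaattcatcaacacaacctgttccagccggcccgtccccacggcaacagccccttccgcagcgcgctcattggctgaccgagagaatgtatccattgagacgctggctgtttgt
Fgfr3 (chr5:33721474-33721673, forward strand): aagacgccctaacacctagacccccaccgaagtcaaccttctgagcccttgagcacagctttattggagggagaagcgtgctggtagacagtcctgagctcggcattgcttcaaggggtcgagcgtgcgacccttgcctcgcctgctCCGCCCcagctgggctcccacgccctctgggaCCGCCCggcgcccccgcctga

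These stretches were searched on both strands for letters of 7 motifs, and 8 of the 10 genes had a promoter in the RefSeq table, with 250 bases before the start each. The GC box was in the promoter of Spry1, 60 to 55 bases before its start, and in those of Fgfr3, Fgf2 and Fgf18, and 32.7% of all 32851 promoters of this length held it. The promoters of Spry2, Dusp6, Fgf7 and Fgfr2 held none of the motifs. None of the 8 genes had in this window the ETS motif CCGGAA (12% of all promoters), the CRE TGACGTCA (1.55%), the AP-1 site TGANTCA (6.75%), the TATA box TATAAA (12.4%), the RUNX core TGTGGT (14.0%) or the CArG box of SRF (1.47%). The shorter part GGAA of the ETS motif was not searched for, and the printed stretches of Spry1, Spry2 and Dusp6 hold it. A match is a description of letters, and its absence says only that those letters are not in this window. Spry4 and Fgfr1 are named only.

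Libraries held from 7741204 to 37306090 reads on genes, and the day 4 libraries were the deepest. The noncoding gene Gm42418 took 12% of the reads in day 0 replicate 3 and 8.12% in day 7 replicate 2. In day 7 replicate 3 the gene with the most reads was Plekhh2, at 7.95%. Of 10 osteoblast markers, 9 rose by day 7 and all 10 were higher at day 4 than at day 0 without overlap, among them Bglap (osteocalcin), whose mean RPKM (reads per kilobase of gene model, scaled to library size) was 0.55 before differentiation, 33.1 at day 4 and 148 at day 7. The exception in the test was Runx2, the master regulator of the lineage (log2 fold change 0.23, limma adjusted p = 0.268). Of 6 macrophage markers, 5 were tested and all 5 rose, and the summed RPKM of the list was 7.20 to 11.1 before differentiation, 14.1 to 18.6 at day 4 and 15.6 to 20.1 at day 7. Of the osteoclast list, Acp5 and Ctsk rose and Calcr, Oscar and Dcstamp were near 0. Defining markers of endothelium (Pecam1, Cdh5, Emcn), epithelium (Epcam, Krt5, Krt14) and muscle (Myod1, Ckm) were at or near 0, while Cdh1 and Acta1 of these lists rose. In bulk RNA, fewer cells of a kind and less RNA per cell cannot be told apart, and this holds for every level given here.

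Levels are given in RPKM, so that genes can be compared with each other per length. Fgfr2 had the highest level of the 10 genes at every stage. At day 0 it was followed by Fgfr1, then by Dusp6, Fgf7 and Spry1, whose libraries overlapped, then by Spry2, Fgfr3, Fgf2, Spry4 and Fgf18, each separate from the next. At day 4 the order at the top was Fgfr2, Fgfr1 and Dusp6, with overlap between neighbours. At day 7 the 2 large receptors were followed by Fgf7, Dusp6 and Fgfr3, again with overlap between neighbours, and then by Spry1 and Spry2. Fgfr3 was thus below Spry1 and Spry2 in every library of days 0 and 4, and above both in every library of day 7.

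**Figure D1:**
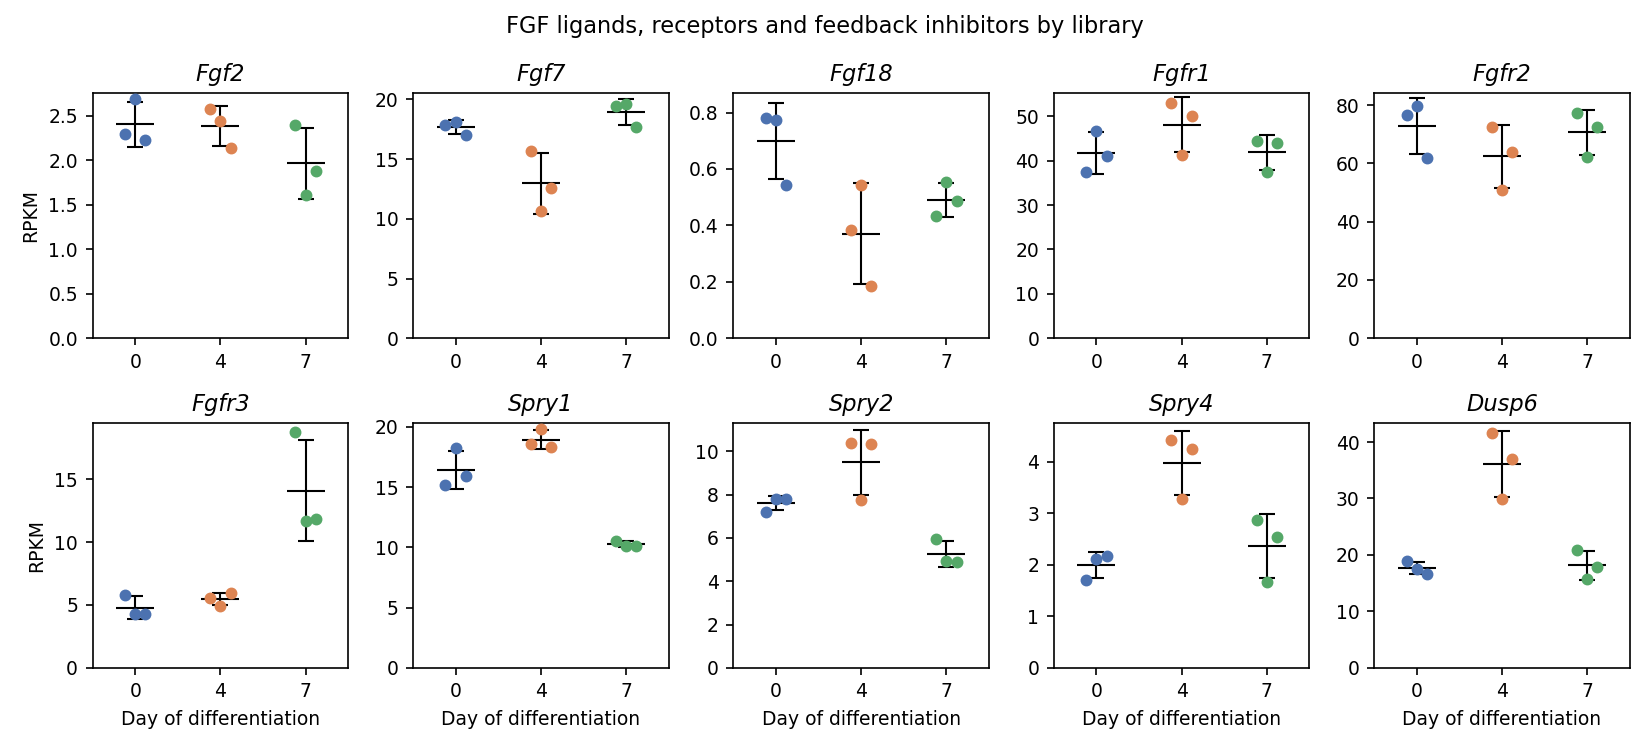
RPKM of the 10 genes in each of the 9 libraries (points) by day of differentiation, with the mean and SD of each stage in black (n = 3), each panel with its own axis from 0. Fgfr3 stands higher at day 7 in all 3 libraries, Dusp6 and Spry4 stand highest at day 4, and Spry1 and Spry2 stand lowest at day 7.

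Fgf7, also known as keratinocyte growth factor, had the most transcript of the 3 ligands. Its RPKM was 17.9, 18.1 and 17.0 in the day 0 libraries, 15.7, 10.7 and 12.6 in those of day 4 and 19.5, 19.7 and 17.7 in those of day 7. Every day 4 library was below every library of the other stages, and days 0 and 7 overlapped. The means were 17.7 ± 0.595, 13.0 ± 2.53 and 18.9 ± 1.08 (SD, n = 3). From day 0 to day 7 its log2 fold change on the log2(CPM + 0.5) scale was 0.10 (95% interval -0.21 to 0.41, limma adjusted p = 0.681). Day 4 lay in a table of its own and entered no test.

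Fgf2, or basic FGF, which is a standard mitogen for osteoblast precursors, was far lower. Its RPKM was 2.30, 2.69 and 2.22 in the day 0 libraries, 2.57, 2.44 and 2.14 in those of day 4 and 2.40, 1.61 and 1.88 in those of day 7. The stages overlapped throughout, and the log2 fold change from day 0 to day 7 was -0.27 (95% interval -0.73 to 0.19, limma adjusted p = 0.394). On the opposite strand, exons of Nudt6 cover 9.44% of the exonic bases of Fgf2 in GENCODE M21. That model has 6782 exonic bases, against 1.80 kb behind the deposited RPKM, so the overlap need not hold for the model that was counted. Whether reads were counted by strand is not given in the sources used here, so reads of the pair may not be told apart.

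Fgf18, which is known as a ligand required for skull bone growth, had 5 to 24 reads per library. Its RPKM was 0.781, 0.775 and 0.544 in the day 0 libraries, 0.385, 0.542 and 0.187 in those of day 4 and 0.432, 0.552 and 0.485 in those of day 7. The day 4 libraries were below those of day 0 by a narrow margin, and day 7 overlapped both. It fell below the filter on low values, so limma did not test it, and the exact permutation test between days 0 and 7 gave p = 0.2, where 0.1 is the smallest that 3 libraries against 3 allow. A difference between the stages was not detectable at this depth.

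Among the receptors, Fgfr2 and Fgfr1 made up most of the transcript. Fgfr2, which lies on chr7 from 130162451 to 133123350 on the reverse strand in GENCODE M21 (GRCm38), had an RPKM of 76.7, 79.8 and 61.8 in the day 0 libraries, 72.5, 50.8 and 63.8 in those of day 4 and 77.3, 62.2 and 72.4 in those of day 7. No stage stood apart. The log2 fold change from day 0 to day 7 was -0.04 (95% interval -0.36 to 0.28, limma adjusted p = 0.882), and its sign depended on the scaling. On this strand the higher coordinate is the annotated start, whereas the RefSeq promoter of the gene lies at 130266809 to 130267058. With Ctbp2, an overlapping gene on the same strand, Fgfr2 shares 3.04% of its exonic bases in GENCODE M21. That model has 10328 exonic bases, against 7.24 kb behind the deposited RPKM, so the overlap need not hold for the model that was counted.

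Fgfr1 (chr8 from 25513654 to 25575718, forward strand) had an RPKM of 37.4, 46.8 and 41.1 in the day 0 libraries, 53.1, 41.2 and 50.0 in those of day 4 and 44.3, 37.3 and 44.0 in those of day 7. Its stages overlapped as well, and the log2 fold change from day 0 to day 7 was 0.01 (95% interval -0.31 to 0.32, limma adjusted p = 0.983). For both receptors the interval leaves out a change of 2-fold in either direction. Gene-level values do not separate the splice forms of the receptors, which differ in the ligands they bind.

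Fgfr3 (chr5 from 33721674 to 33737068, forward strand), best known as a brake on cartilage growth, was the member that rose. Its RPKM was 5.81, 4.27 and 4.26 in the day 0 libraries, 5.55, 4.95 and 5.93 in those of day 4 and 18.7, 11.7 and 11.8 in those of day 7. All 3 day 7 libraries were above all libraries of days 0 and 4, which overlapped each other. The mean at day 7 was 2.94 times the mean at day 0 (14.1 ± 4.03 against 4.78 ± 0.892, SD, n = 3) and 2.57 times that at day 4 (5.48 ± 0.493). The log2 fold change from day 0 was 1.52 with an SE of 0.17 (95% interval 1.17 to 1.87, limma adjusted p = 5.66e-10), and across the 15 alternative settings it ran from 1.30 to 1.79 and stayed past the threshold. The exact permutation test gave p = 0.1, the smallest possible.

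Day 7 replicate 1, the library with the highest Fgfr3, also had the highest chondrocyte transcripts of its stage, with Acan (aggrecan) at 19.0 against 7.70 and 6.17 RPKM in replicates 2 and 3, and Col2a1 (the main cartilage collagen) at 92.8 against 29.2 and 38.5. Day 0 replicate 1 likewise had the highest Fgfr3 and, at 420 RPKM, the highest Col2a1 of its stage. Between days 0 and 7 the cartilage list was mixed. Of its 5 tested genes, Acan and Col10a1 rose while Sox9, Col2a1 and Col9a1 fell, and the summed RPKM of the list was 159 to 456 before differentiation, 51.6 to 166 at day 4 and 45.9 to 128 at day 7. Without day 7 replicate 1 the log2 fold change of Fgfr3 was 1.30 and still past the threshold. The part of cartilage cells in the level of Fgfr3 was not tested. Exons of an opposite-strand gene, G630022F23Rik, cover 13.9% of the exonic bases of Fgfr3.

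The receptors can also be read as shares of their summed RPKM within a library, which does not depend on how libraries are scaled. Fgfr4, the remaining receptor kinase, was under 0.27 RPKM in every library and is included in the sum. Fgfr3 took 4.03% ± 0.792 of the sum before differentiation, 4.76% ± 0.463 at day 4 and 11.0% ± 2.10 at day 7 (SD, n = 3). Its share at day 7 was above that in every library of the earlier stages. The share of Fgfr2 was 60.8% ± 3.15 at day 0 and 55.8% ± 0.711 at day 7, lower at day 7 without overlap, and that of Fgfr1 was 35.1% ± 3.63 and 33.1% ± 1.42, with overlap. The exact permutation tests between days 0 and 7 gave p = 0.1 for Fgfr3 and Fgfr2 and p = 0.5 for Fgfr1, and 0.15, 0.15 and 0.6 after Benjamini-Hochberg adjustment over the 6 shares tested, so none passed. At day 4 the share of Fgfr1 was 41.5% ± 1.02, above every day 0 library, and that of Fgfr2 was 53.6% ± 1.45, already below every day 0 library. The summed RPKM of the receptors was 119 ± 11.8 before differentiation, 116 ± 17.4 at day 4 and 127 ± 14.7 at day 7, and days 0 and 7 overlapped (exact permutation p = 0.5).

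**Figure D2:**
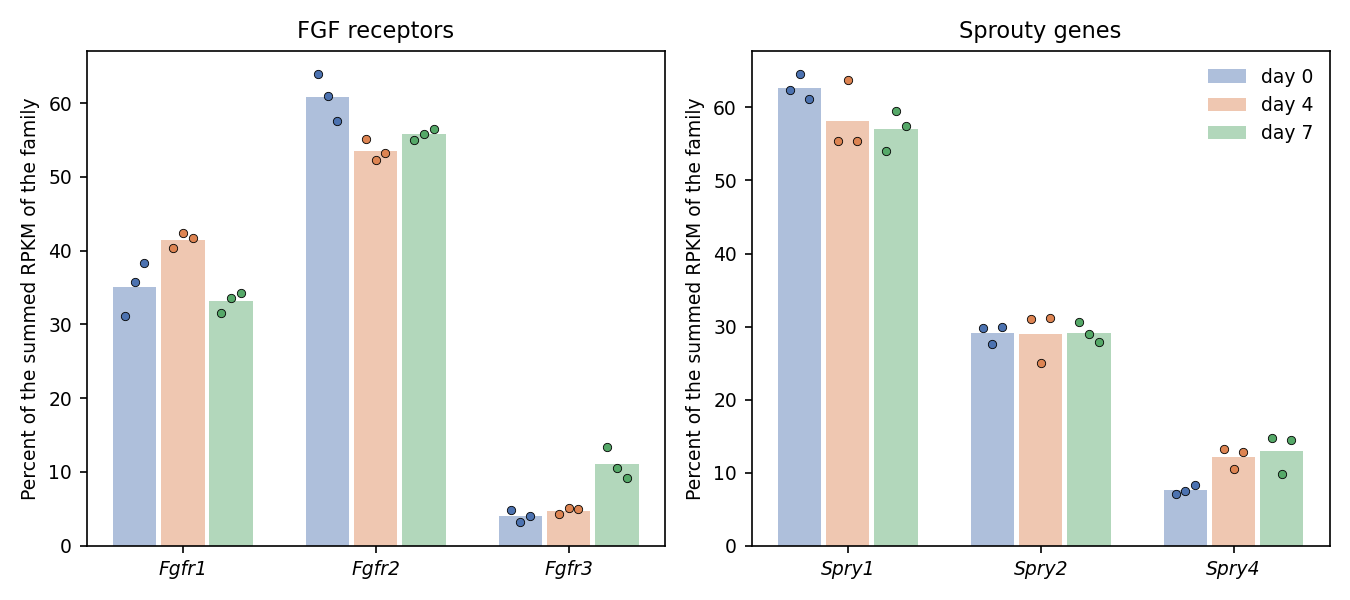
Share of Fgfr1, Fgfr2 and Fgfr3 (left) and of Spry1, Spry2 and Spry4 (right) in the summed RPKM of its family, in percent, with bars for the mean of 3 libraries at days 0, 4 and 7 and points for the libraries. Fgfr3 goes from 4.03% at day 0 to 11.0% at day 7, and Spry4 from 7.62% to 13.0%.

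The genes whose profile over the 9 libraries was most like that of each receptor were sought among 12710 genes, by the largest difference of centred log2(CPM + 0.5) in any library. For Fgfr1 these were Mybbp1a (largest difference 0.09) and Larp1 (0.11), and for Fgfr2 they were Prkar2a and Rita1 (0.11 each). For Fgfr3 the nearest were St3gal6, a sialyltransferase, at 0.37, and Ell2, a transcription elongation factor, at 0.47. By this measure a gene whose level changes more is harder to match, so the distances cannot be compared between the receptors. St3gal6 was itself at most at 0.739 RPKM in all libraries, whereas Ell2 lay between 8.96 and 12.5 RPKM at day 0, between 15.0 and 19.5 RPKM at day 4 and between 26.4 and 34.4 RPKM at day 7. Its day 4 libraries were thus above all of day 0, where those of Fgfr3 overlapped day 0.

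Spry1 had the most transcript of the Sprouty genes and was lower at day 7. Its RPKM was 15.1, 18.2 and 16.0 in the day 0 libraries, 18.6, 19.8 and 18.4 in those of day 4 and 10.5, 10.1 and 10.1 in those of day 7. Every day 7 library was below every library of the other stages. The log2 fold change from day 0 to day 7 was -0.67 with an SE of 0.16 (95% interval -0.99 to -0.34, limma adjusted p = 0.00102), and all 15 alternative settings gave a fall past the threshold, from -0.72 to -0.56. As deposited, every day 4 library was just above every day 0 library (18.9 ± 0.792 against 16.4 ± 1.59 RPKM, SD, n = 3), but with median-of-ratios scaling over the 9 libraries these overlapped. Exons of the opposite-strand gene Gm42922 cover 24.4% of the exonic bases of Spry1.

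Spry2, a close relative with the same role, was lower at day 7 by a smaller margin. Its RPKM was 7.22, 7.78 and 7.80 in the day 0 libraries, 10.4, 7.76 and 10.3 in those of day 4 and 5.97, 4.94 and 4.91 in those of day 7. The day 7 libraries were below all others, while days 0 and 4 overlapped through day 4 replicate 2. The log2 fold change from day 0 to day 7 was -0.51 with an SE of 0.18 (95% interval -0.88 to -0.14, limma adjusted p = 0.0278). This call was close to the threshold. The adjusted p ran from 0.0135 to 0.148 over the 15 alternative settings, of which 9 kept it past the threshold, and it missed the threshold when day 0 replicate 2 (0.091), day 7 replicate 2 (0.115) or day 7 replicate 3 (0.148) was left out.

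Spry4 was the lowest of the 3 and had a different course. Its RPKM was 1.71, 2.11 and 2.17 in the day 0 libraries, 4.43, 3.27 and 4.24 in those of day 4 and 2.87, 1.67 and 2.54 in those of day 7. Each day 4 library was above all others, and the mean was 1.99 times that of day 0 (3.98 ± 0.622 against 2.00 ± 0.250 RPKM, SD, n = 3). Days 0 and 7 overlapped, with a log2 fold change of 0.20 (95% interval -0.20 to 0.61, limma adjusted p = 0.481).

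Dusp6 had the largest step of the 10 genes between days 0 and 4. Its RPKM was 18.9, 17.5 and 16.7 in the day 0 libraries, 41.6, 29.9 and 37.0 in those of day 4 and 20.8, 15.7 and 17.9 in those of day 7. The day 4 libraries stood clear of all others, with a mean of 36.2 ± 5.86 against 17.7 ± 1.13 at day 0 and 18.2 ± 2.56 at day 7 (SD, n = 3), which is 2.04 and 1.99 times as high. From day 0 to day 7 the log2 fold change was 0.03 (95% interval -0.29 to 0.35, limma adjusted p = 0.912). The ratios of day 4 to day 0 for Dusp6 and Spry4 were 2.08 and 2.01 with median-of-ratios scaling over the 9 libraries.

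The Sprouty genes together had a summed RPKM, with the barely detected Spry3 included, of 26.2 ± 1.99 before differentiation, 32.6 ± 1.32 at day 4 and 18.0 ± 1.28 at day 7 (SD, n = 3). The stages did not overlap, and the exact permutation test between days 0 and 7 gave p = 0.1, the smallest possible. Within the sum, Spry1 took 62.7% ± 1.69 at day 0 and 57.0% ± 2.79 at day 7, and Spry4 took 7.62% ± 0.640 and 13.0% ± 2.75, each with no overlap between these stages (exact permutation p = 0.1, adjusted 0.15). The share of Spry2 was 29.1% ± 1.32 and 29.2% ± 1.37 (exact permutation p = 1, adjusted 1).

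**Figure D3:**
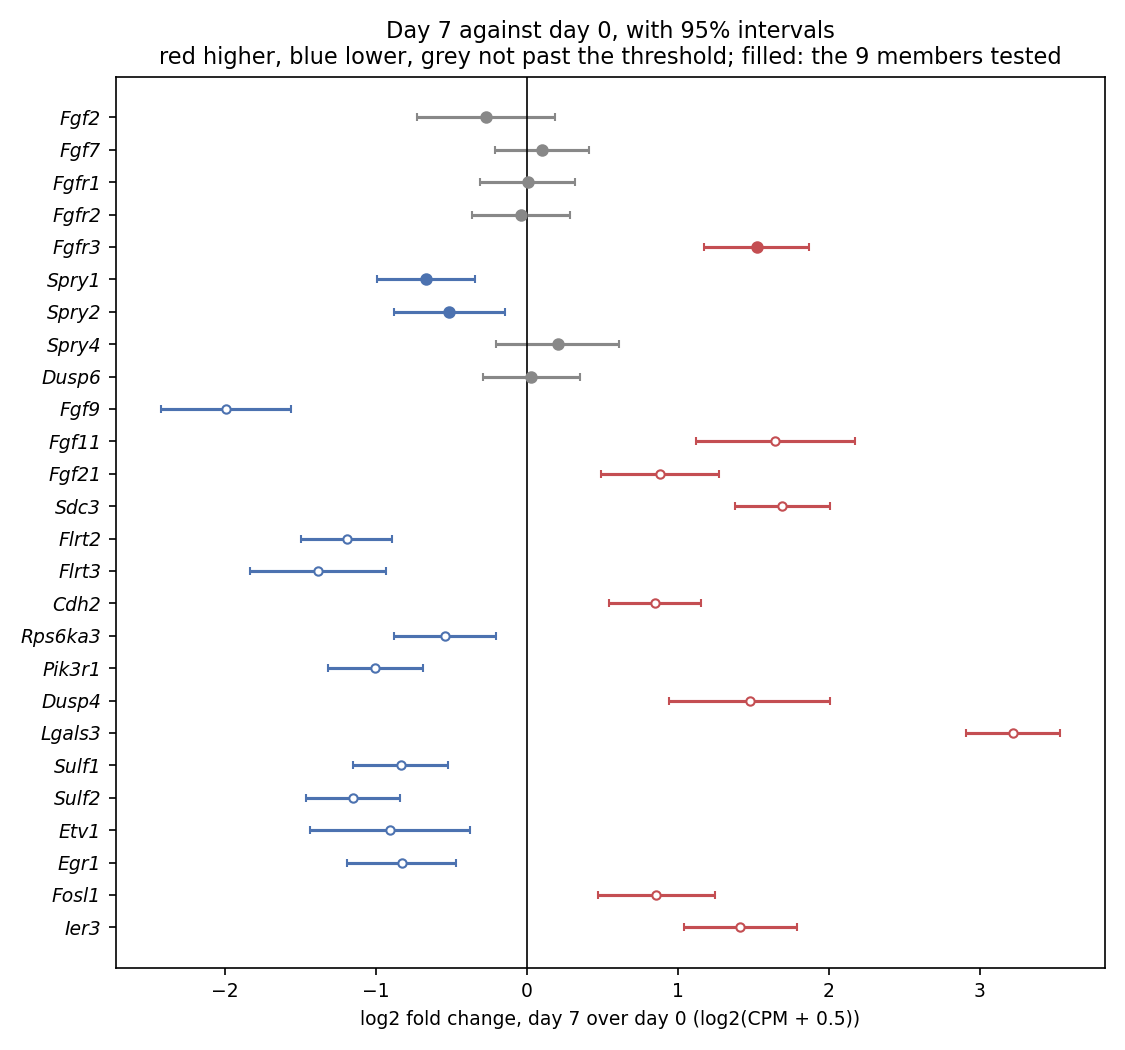
Log2 fold change of day 7 over day 0 on the log2(CPM + 0.5) scale, with 95% intervals, for the 9 tested members (filled points) and the named genes of the wider pathway (open points). Fgfr3 at 1.52 lies to the right of 0, Spry1 at -0.67 and Spry2 at -0.51 lie to the left, and the intervals of the other 6 members include 0.

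In counts, 9 of the 10 members were tested, of which 1 was higher, 2 were lower and 6 were not past the threshold at day 7 against day 0. Over all 12712 genes tested, 12.6% were higher and 18.6% were lower, and leaving out day 0 replicate 2, day 7 replicate 2 or day 7 replicate 3 left 1 member lower. By overlap of the libraries alone, Fgfr3 stood higher at day 7 and Spry1 and Spry2 lower, where 16.9% and 25.4% of 12710 genes did. The median log2 fold change was 0.01 over the 9 members and -0.11 over all genes, and the latter became -0.01 with median-of-ratios scaling. Set against day 0, 3 of the 9 were higher in every day 4 library (Spry1, Spry4 and Dusp6), where 21.1% of 12710 genes were, and 1 was lower (Fgf7), where 22.2% were. Without day 4 replicate 2, Spry2 and Fgfr1 joined them and the count was 5, and with median-of-ratios scaling over the 9 libraries Spry1 dropped out and it was 2. Set against day 4, 4 were lower in every day 7 library, all of them feedback inhibitors, where 24.6% of genes were, and 2 were higher (Fgf7 and Fgfr3), where 13.8% were. The pattern of a day 4 peak, with every day 4 library above all 6 others, was present in 3 of the 9 members, in Spry1, Spry4 and Dusp6, and in 7.77% of 12710 genes. With median-of-ratios scaling Spry1 no longer had it.

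The wider pathway was described with a list of 85 further genes, of which 65 were tested. At day 7 against day 0, 12 were higher, 15 were lower and 38 were not past the threshold, where 12.6% of all genes tested were higher and 18.6% lower. The median log2 fold change of the list was -0.15. Without day 0 replicate 3, 29 were lower. The share of all genes under that setting is not given here, so this count cannot be read as particular to the list. At day 4, 22 of the 65 were higher than at day 0 without overlap, as were 21.1% of all genes, and 10 had the day 4 peak, as had 7.77% of all genes.

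Among the 19 other ligands, 8 had at most 3 reads in each library, and Fgf4 and Fgf20 had none. With 5 tested, Fgf11 and Fgf21 rose and Fgf9 fell, where 12.6% of all genes tested rose and 18.6% fell. Fgf9, a ligand of joint and bone development that binds Fgfr3 among other receptors, had an RPKM of 2.54, 2.86 and 2.12 in the day 0 libraries, 1.77, 1.43 and 1.83 in those of day 4 and 0.532, 0.571 and 0.510 in those of day 7. Each stage lay wholly below the one before, and the log2 fold change from day 0 to day 7 was -1.99 (SE 0.21, limma adjusted p = 1.22e-10). Fgf21, an endocrine FGF best known from liver, was at 8.93 ± 2.05, 17.0 ± 1.13 and 16.7 ± 1.37 RPKM (SD, n = 3 at each stage), which is 0.88 higher on the log2 scale (limma adjusted p = 0.000315). Its co-receptor Klb had 1 read per library at days 0 and 7 and 5 or 6 at day 4. Fgf11, an intracellular FGF that is not known to act through these receptors, rose by 1.65 on the log2 scale (limma adjusted p = 1.55e-06). Its rise ran from 1.23 to 1.95 over the 15 alternative settings.

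Of the 18 other receptors, co-receptors and binders, 13 were tested, 3 rose and 3 fell, where 12.6% and 18.6% of all genes did. The third fall, that of the proteoglycan gene Hspg2 (perlecan, log2 fold change -0.41, limma adjusted p = 0.0497), was past the threshold in 1 of the 15 alternative settings, with adjusted p-values from 0.0497 to 0.316. The heparan sulfate proteoglycan Sdc3 (syndecan 3) rose from 22.9 ± 0.763 RPKM at day 0 to 74.8 ± 13.5 at day 7, with 53.4 ± 3.51 at day 4 (SD, n = 3), or 1.69 on the log2 scale (limma adjusted p = 1.35e-12). Gpc1, a glypican of the same class and the gene with the highest level of the list, also rose (log2 fold change 0.66), as did Cdh2 (N-cadherin, 0.85), a cell adhesion protein that can bind Fgfr1. Flrt3 and Flrt2, membrane proteins that interact with the receptors, fell by 1.38 and 1.19 on the log2 scale. Fgfrl1, a receptor without the kinase, was at 15.2 ± 1.17 RPKM at day 0 and 12.2 ± 0.964 at day 7, with a log2 fold change of -0.31 that was not past the threshold (limma adjusted p = 0.144). Hspg2, Gpc1 and Fgfrl1 were chosen after their values were seen.

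All 24 transducers between receptor and ERK were tested. With limma on the CPM as deposited 0 rose and 5 fell, where 12.6% of all genes tested rose and 18.6% fell. Also at an unadjusted p under 0.05, 0 rose. The falls were of at most 1.0 on the log2 scale: Pik3r1, a regulatory subunit of PI3 kinase (-1.0), Rps6ka3, a kinase downstream of ERK (-0.54), and the adaptor, exchange factor and RAS genes Shc1, Sos1 and Nras (-0.54 each). The last 3 were chosen for mention after their values were seen. Braf, Map2k1, Map2k2 and Mapk3, which encode kinases of the ERK cascade, were not past the threshold and were likewise chosen afterwards. The count of rises depended on the scaling. With median-of-ratios scaling in limma 2 genes rose and 7 fell, with voomWithQualityWeights, also of limma, 4 rose and 7 fell, with edgeR 2 rose (Sos2 and Mapk3) and 7 fell, and with DESeq2 1 rose (Mapk3) and 6 fell. Leaving out day 0 replicate 3 raised the number that fell to 12, and leaving out day 0 replicate 2, day 7 replicate 2 or day 7 replicate 3 brought it to 3. The shares of all genes under these alternatives are not given here, so these counts cannot be set against them. Rps6ka3 lost its call by limma when day 0 replicate 1 (adjusted p = 0.106) or day 7 replicate 3 (adjusted p = 0.0514) was left out.

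Of 14 other feedback inhibitors, 13 were tested, 3 rose and 4 fell, where 12.6% and 18.6% of all genes tested did. The phosphatase gene Dusp4 rose with a log2 fold change of 1.48, and Dusp5 with 1.11, while Sulf2 and Sulf1, which trim sulfate from heparan sulfate outside the cell, fell by 1.15 and 0.84. For Dusp4 the 15 alternative settings ran from 1.09 to 1.81. Il17rd (Sef) and Spred3, which dampen signalling at the receptor and at RAS, fell by 0.82 and 0.56. The fall of Il17rd was past the threshold in all 15 alternative settings and that of Spred3 in 10, with adjusted p-values of up to 0.151, which it had without day 0 replicate 1. Spred3 also missed the threshold without day 0 replicate 2 (0.0631), day 7 replicate 2 (0.0966) or day 7 replicate 3 (0.0858), and with all genes with reads (0.0605), each by limma. The largest rise of this list, that of Lgals3 at 3.22, is of a galactose-binding lectin whose known roles lie mostly outside FGF feedback. Like Dusp6, the ERK phosphatase gene Dusp9 was highest at day 4, at 3.50 ± 0.358 RPKM against 1.42 ± 0.462 at day 0 and 1.64 ± 0.125 at day 7 (SD, n = 3), and Dusp5 had the same order of means, with overlap between days 4 and 7. Of the 13 tested, 5 were higher at day 4 than at day 0 without overlap and 2 were lower (Il17rd and Sulf2), where 21.1% and 22.2% of 12710 genes were. A day 4 peak was present in 2, against 7.77% of these genes. Dusp5, Dusp9, Il17rd and Spred3 were chosen after their values were seen.

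The 10 ERK-responsive transcription factor genes and targets were all tested. At day 7 against day 0, 4 rose, 2 fell and 4 were not past the threshold, where 12.6% of all genes tested rose and 18.6% fell. The largest rises were those of Ier3 (1.41) and Fosl1 (0.86), and the falls were those of Etv1 (-0.91) and Egr1 (-0.83). Over the 15 alternative settings Etv1 ran from -1.15 with a pseudocount of 0.1 to -0.40 with RPKM. At day 4, 8 of the 10 were higher than at day 0 without overlap, against 21.1% of all genes. A day 4 peak was present in 4, against 7.77% of all genes. Etv4, an ETS factor that is a common marker of FGF response, had an RPKM of 3.08, 3.74 and 3.33 in the day 0 libraries, 14.6, 13.8 and 15.6 in those of day 4 and 6.11, 5.13 and 5.09 in those of day 7. Fos went from 4.85 ± 0.237 to 23.9 ± 1.99 and back to 5.10 ± 1.59 RPKM, and Egr1 from 6.98 ± 1.15 to 17.2 ± 3.68 and then to 3.90 ± 0.794 (SD, n = 3). Etv4, Fos and Etv5 were chosen after their values were seen. For Etv5, which is closely related to Etv4, the means were 7.32 ± 0.559, 8.59 ± 0.558 and 7.63 ± 0.418 RPKM.

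**Figure D4:**
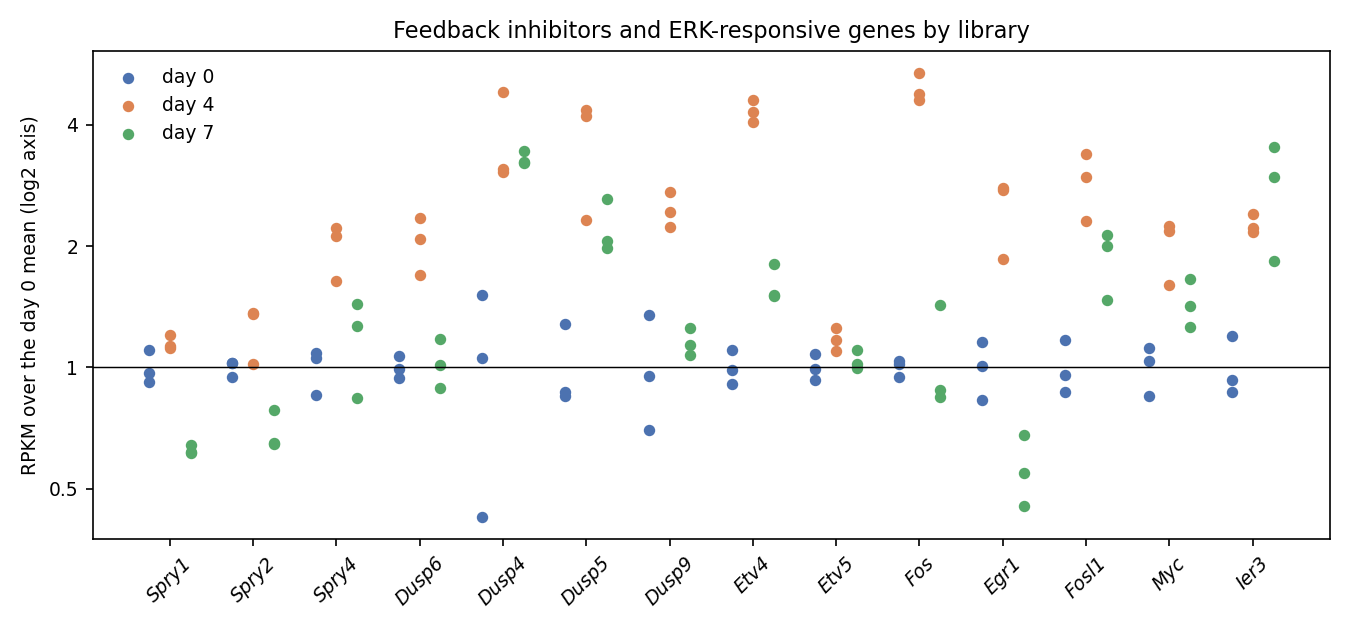
RPKM of selected feedback inhibitors and ERK-responsive genes in each library, divided by the gene's mean at day 0, on a log2 axis where the line at 1 is the day 0 mean, with 3 points per stage. All genes drawn had a higher mean at day 4 than at day 0. Of the full lists, this held for 7 of 13 tested other feedback inhibitors and 8 of 10 ERK-responsive genes. At day 4 the points of Dusp6 and Spry4 lie near 2 and those of Etv4 and Fos above 4, and at day 7 those of Dusp6 and Fos lie around 1.

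Many immediate early genes were also highest at day 4. A list of 19 genes that respond to handling and dissociation as well as to growth factors, which includes Fos and Egr1, had 18 tested members, and 13 of these were higher at day 4 than at day 0 without overlap, against 21.1% of all genes. A day 4 peak was seen for 11 of the 18, against 7.77% of all genes. The summed RPKM of the list was 218 to 277 before differentiation, 462 to 540 at day 4 and 279 to 364 at day 7. The list holds genes with no special tie to FGF, such as Atf3 and Nr4a1, and the share of handling in the day 4 levels of Dusp6, Spry4 and Spry1 was not tested. Depth was highest at day 4 too, with at least 32820610 reads on genes per library against at most 15622755 at the other stages.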

How the data were processed

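Reads of 9 ribosome-depleted libraries were, according to the methods and the labels, aligned by the authors to the Ensembl release 76 assembly (GRCm38) with STAR 2.0.4b, and uniquely aligned, unambiguous reads were counted per gene with featureCounts. For each gene the authors deposited CPM, the reads scaled to the library total, and RPKM, which is also divided by the length of the gene model. Days 0 and 7 share a table, and day 4 has its own. Dividing by the step between low CPM values gave back whole reads for 100% of values (tolerance 0.05), 7741204 to 37306090 in a library.

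Day 7 was compared with day 0 with limma 3.58.1 (R 4.3.3) and its trended prior, fitted to log2(CPM + 0.5). Genes needed a mean CPM of 1 or more over both stages, which 12712 reached, and p-values were adjusted over all of these by the Benjamini-Hochberg method (threshold 0.05). Day 4 was compared by overlap of libraries alone. Levels are means and SD of RPKM, and single values and shares have two-sided exact permutation tests. All p-values come from these 3 libraries per stage, and those of limma rest mostly on a spread pooled over genes through its prior. Counts of reads carry counting error only as far as PCR copies allow, since molecules were not marked. The variance prior weighed 42.9 degrees of freedom and the libraries themselves 4. Alternatives were other pseudocounts (0.1 and 1), all genes with reads, the RPKM table, median-of-ratios scaling, edgeR 4.0.16, DESeq2 1.42.0 and voomWithQualityWeights on the recovered reads, a replicate block, and leaving out each library. Same-numbered libraries of days 0 and 7 had correlations of their deviations of -0.02, -0.18 and -0.44, so the numbers were not taken as pairs. The limma step was tested on simulated data.

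The members and lists were chosen with earlier results of these data known. Named were all members and, in each role of the wider list, the 2 largest rises and falls past the threshold, ligands over 1 RPKM at any stage, and for each receptor the 2 genes with the nearest profile. Genes named beside these were chosen after their values were seen. Coordinates are from GENCODE M21 (GRCm38).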

Additional observations from a re-analysis of the deposited data

How the results depend on the processing

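The rise of Fgfr3 and the fall of Spry1 kept their direction and stayed past the threshold in all 15 alternatives, whereas the fall of Spry2 did so in 9. As a result 1 member instead of 2 was lower with all genes with any reads, with DESeq2 and with the replicate block, and 1 to 2 when each library was left out. Under the block Spry2 had an adjusted p of 0.0645 by limma, 1 member was higher, and of the wider list 12 were higher and 14 lower. With voomWithQualityWeights 2 members were higher, since Fgf7 (log2 fold change 0.25, adjusted p = 0.0412, against 0.0412 to 0.855 over its alternatives) joined Fgfr3, and 20 of the wider list were higher instead of 12. Leaving out each library gave 11 to 29 genes of that list lower against 15 with all. The signs of changes that were not past the threshold were not stable. Fgfr2, at -0.04, was at 0.069 with median-of-ratios scaling, 0.069 with edgeR, 0.072 with DESeq2 and 0.063 with voomWithQualityWeights, and at -0.15 to 0.050 when each library was left out, where Fgfr1 ran from -0.070 to 0.090 and Dusp6 from -0.073 to 0.13. The share of Spry2 moved by 0.0839 points, by -0.636 points in CPM without division by length, and by -0.676 to 0.719 points when each library was left out. The following checks were chosen after seeing the data. Leaving out each library gave 3 to 5 members higher at day 4 than at day 0 without overlap (5 without day 4 replicate 2). Median-of-ratios scaling gave 2 instead of 3, without Spry1. Of the 65 tested genes of the wider list, 22 were lower at day 7 than at day 4 without overlap and 7 were higher, where 24.6% and 13.8% of 12710 genes were. Leaving out each library gave 22 to 35 lower (35 without day 7 replicate 1). Shares of all genes with a library left out are not given here. Depth limits Fgf18, with 5 to 24 reads per library, and 3 libraries per stage cannot give an exact p under 0.1. The causes of these shifts were not tested. Taking all genes with reads changed both the genes in the adjustment and the genes from which the variance prior was estimated.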
